A study of Mus musculus with 8 samples.

Results

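The CRH-urocortin system was described through 7 genes, matched by Ensembl identifier: the binding protein gene Crhbp, the peptide genes Crh, Ucn, Ucn2 and Ucn3, and the receptor genes Crhr1 and Crhr2. They are 7 of the 55487 genes in each deposited table, and 3 of them (Crhbp, Ucn3 and Crhr2) passed the low-count filter that left 16266 genes to test. The set was chosen by the measured Crhbp difference between these genotypes, so every Ide-/- against Ide+/+ value of the 7 genes is given as a description and carries no test.

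RNA was sequenced from hand-picked islets of C57BL/6J mice that were put on a 60 kcal% fat diet at 10 weeks of age and kept on it for 2 weeks. The 3 Ide-/- libraries came from mice without insulin-degrading enzyme (IDE), which breaks down insulin and further peptide hormones. The 5 Ide+/+ libraries came from mice with an intact gene, on the same diet. The labels name the samples biological replicates without saying how many animals gave islets to each, so the p-values measure the spread between these samples. They do not describe how the Ide allele was made, and they give no group on another diet.

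Corticotropin-releasing hormone (CRH) starts the pituitary stress response, and the urocortins are related peptides that act on the same pair of receptors. CRHR1 and CRHR2 are class B G protein-coupled receptors that raise cyclic AMP. CRHBP is a secreted protein that binds CRH and urocortin 1 and keeps them from the receptors. In mouse islets urocortin 3 is made by mature beta cells and is released together with insulin, and it acts on CRHR2 of delta cells, which then secrete somatostatin.

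The libraries of the 2 genotypes differed in more than genotype. Ide-/- libraries held 7143415 to 17445935 counts and Ide+/+ libraries 19277269 to 33371642. Ide itself was at 0.273 ± 0.10 CPM in Ide-/- libraries (SD, n = 3) and at 27.0 ± 7.93 CPM in Ide+/+ libraries (SD, n = 5), where CPM is RSEM expected counts per 1000000 after TMM library scaling. The TMM factors were 1.53 to 2.06 in Ide-/- libraries and 0.405 to 1.18 in Ide+/+ libraries. All 25 tested acinar markers were called lower in Ide-/- libraries (edgeR, TMM scaling, adjusted p under 0.05), where 10.6% of all tested genes were called lower. They took 0.607% to 1.285% of counts in Ide-/- libraries and 20.9% to 35.4% in Ide+/+ libraries (two-sided exact permutation p = 0.0179, the smallest that the 56 splits allow). Markers of duct (7 of 9 tested), macrophages (8 of 9) and lymphocytes (3 of 3) were called lower as well. Summed duct markers were at 210 to 252 CPM in Ide-/- libraries and at 908 to 2472 CPM in Ide+/+ libraries, macrophage markers at 32.7 to 43.6 CPM in Ide-/- and 107 to 192 CPM in Ide+/+, and lymphocyte markers at 1.11 to 1.28 CPM in Ide-/- and 2.77 to 19.1 CPM in Ide+/+. As unscaled shares of counts, macrophage markers overlapped, at 0.00666% to 0.00693% in Ide-/- and 0.00433% to 0.0175% in Ide+/+. Lymphocyte markers overlapped too, at 0.000196% to 0.000229% in Ide-/- and 0.000150% to 0.000842% in Ide+/+. Duct markers did not, at 0.0385% to 0.0451% in Ide-/- and 0.0687% to 0.125% in Ide+/+. Markers of neurons (2 of 4 tested) and Schwann cells (1 of 2) were called higher in Ide-/- libraries, beside 10.4% of all tested genes. Summed neuron markers were at 163 to 180 CPM in Ide-/- and 86.3 to 124 CPM in Ide+/+. Schwann cell markers were at 9.91 to 18.6 CPM in Ide-/- and 4.81 to 9.12 CPM in Ide+/+. All samples are labelled female, but Ddx3y of the Y chromosome had 503 to 2139 counts in 7 libraries and 0 in Ide+/+ replicate 1, where Xist had 692 counts. The log2 fold changes of Crhbp, Ucn3 and Crhr2 are therefore also given without Ide+/+ replicate 1, and those of other genes only in part. Ide+/+ replicates 2 and 3 were close in marker shares of counts (acinar 20.9% and 21.1%, beta 7.62% and 7.74%, alpha 6.45% and 6.54%). Whether these samples share animals is not given, and each n = 5 counts both. Beta, alpha and delta cell markers were present in every library. Summed beta cell markers were at 83424 to 105965 CPM in Ide-/- libraries and at 35124 to 137443 CPM in Ide+/+ libraries, which overlapped. Their unscaled shares of counts did not overlap, at 13.4% to 21.8% in Ide-/- and 1.698% to 7.74% in Ide+/+. Delta cell marker shares did not overlap either, at 0.574% to 1.299% in Ide-/- and 0.0791% to 0.284% in Ide+/+. Alpha cell marker shares overlapped, at 4.904% to 9.88% in Ide-/- and 1.59% to 6.54% in Ide+/+.

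Crhbp (ENSMUSG00000021680; GRCm38 chromosome 13, 95431371 to 95444924, minus strand) was the member with the widest gap between the genotypes. It had 71, 73 and 86 counts in Ide-/- replicates 1 to 3, against 0, 10, 12, 14 and 1 counts in Ide+/+ replicates 1 to 5. On the TMM scale these were 1.98, 2.97 and 7.88 CPM in Ide-/- libraries, against 0, 0.255, 0.427, 0.825 and 0.107 CPM in Ide+/+ libraries. Every Ide-/- library lay above every Ide+/+ library, and Ide-/- replicate 3, the shallowest library, was the highest.

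The mean of Crhbp was 4.28 ± 3.16 CPM in Ide-/- libraries (SD, n = 3) and 0.323 ± 0.32 CPM in Ide+/+ libraries (SD, n = 5), a ratio of means of 13.3. The log2 fold change fitted by edgeR was 3.53 (SE 0.62). Without Ide+/+ replicate 1, which had 0 Crhbp counts, it was 3.30 (SE 0.58). In bulk islets more cells of a type and more RNA per cell cannot be told apart, and this holds for each member. Of the 16266 tested genes 14, Crhbp among them, had a fold change at least as high, beside a median over all tested genes of −0.01. The CPM of the 2 genotypes did not overlap for 2 of the 7 members, Crhbp (higher in Ide-/-) and Crhr1 (lower in Ide-/-), and for 33.0% of all tested genes (17.4% higher and 15.6% lower in Ide-/-). Without Ide+/+ replicate 1 this share of tested genes was 38.5%.

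As a share of unscaled counts Crhbp was at 4.07 per 1000000 in Ide-/- replicate 1 (exact binomial 95% interval 3.18 to 5.13), the lowest Ide-/- share, and at 0.528 per 1000000 in Ide+/+ replicate 4 (0.289 to 0.886), the highest Ide+/+ share. These intervals cover counting error only. With 0 counts in Ide+/+ replicate 1, an upper limit of 3 counts allows up to 0.0791 transcripts per 1000000 (TPM).

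**Figure D1:**
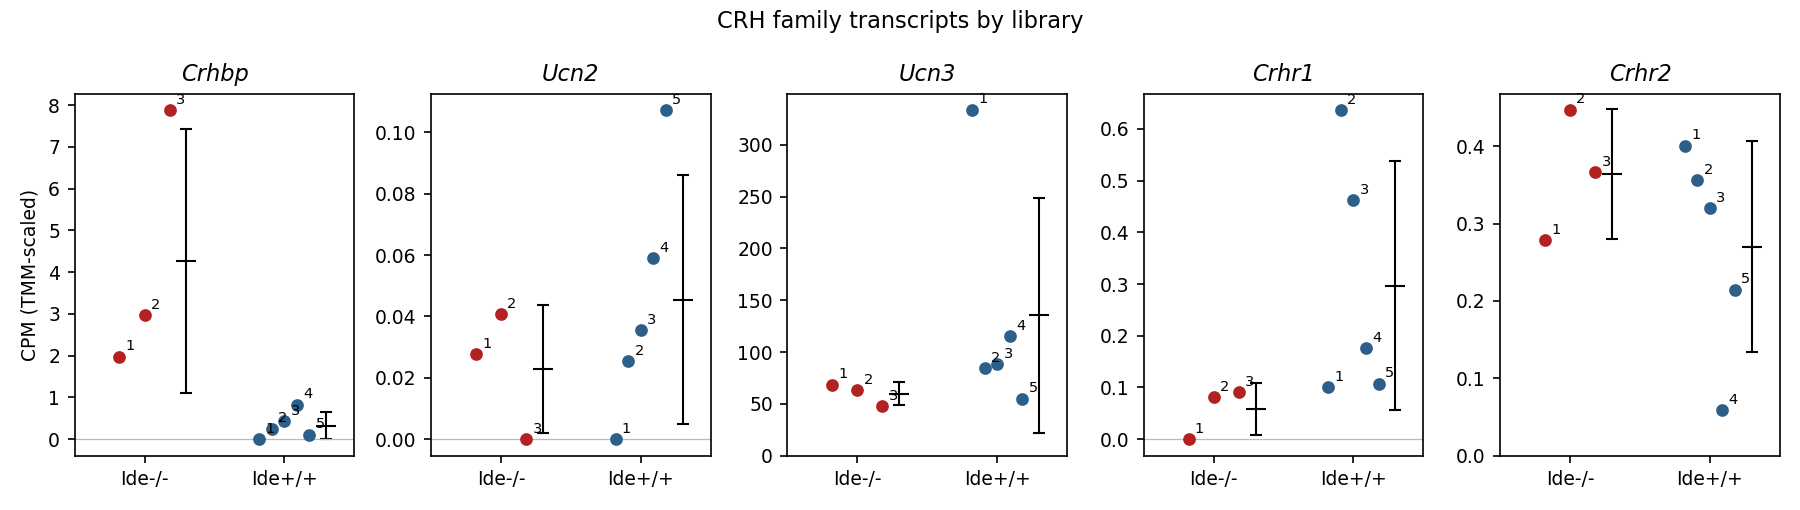
TMM-scaled CPM of the 5 detected members in each library, with Ide-/- in red and Ide+/+ in blue, the replicate number beside each point, and a bar for the mean and SD. Crhbp lay at 1.98 to 7.88 CPM in Ide-/- and at 0 to 0.825 CPM in Ide+/+, while Ucn3 of Ide+/+ replicate 1 stood at 334 CPM, above the 4 other Ide+/+ libraries at 55.0 to 115 CPM.

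Relative to other islet transcripts the order was the same. Crhbp was at 323, 571 and 1707 counts per 1000000 counts of 19 secretory granule genes in Ide-/- replicates 1 to 3, against 0, 43.0, 72.5, 153 and 26.6 in Ide+/+ replicates 1 to 5. The granule genes themselves took 0.705% to 1.26% of counts in Ide-/- libraries and 0.195% to 0.697% in Ide+/+ libraries. In deposited TPM, which is set per transcript length, Crhbp was at 1.79, 2.44 and 5.25 in Ide-/- libraries, against 0, 0.16, 0.28, 0.33 and 0.03 in Ide+/+ libraries. Its mean TPM was above that of 50.1% of the tested genes in Ide-/- libraries and above that of 7.05% in Ide+/+ libraries.

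Crhbp has 2 annotated transcripts in the tables, of 1701 and 1779 bases. The weighted transcript length that RSEM gives per library puts 34.4%, 86.0% and 23.7% of Crhbp transcripts on the longer one in Ide-/- replicates 1 to 3. It puts 100% there in Ide+/+ replicate 2, which rests on 10 counts, and 0% in replicates 3, 4 and 5, which rest on 12, 14 and 1 counts. These shares are estimates without a measure of error, so whether the mix varied between libraries cannot be told. No read of any of the 7 members was divided between genes, since each of their expected counts was a whole number, and no annotated gene overlaps any of the 7 gene bodies.

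Sequence before the start site was available for 5 of the 7 members (RefSeq, GRCm38.p6). It is shown for Crhbp and Ucn3, the members with the highest levels, and for Ucn, which was not detected and which carries a complete cyclic AMP response element (CRE). Each is written 5′ to 3′ on the minus strand, capitals mark matches to the motifs searched, and the Crhbp stretch stops where the longest GENCODE transcript begins. The regions are chr13:95444925-95445081 for Crhbp (157 bases), chr13:3945350-3945599 for Ucn3 (250 bases) and chr5:31138896-31139145 for Ucn (250 bases).
Crhbp: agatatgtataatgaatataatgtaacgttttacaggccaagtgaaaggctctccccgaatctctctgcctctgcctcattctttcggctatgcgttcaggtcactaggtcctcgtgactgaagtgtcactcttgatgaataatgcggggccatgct
Ucn3: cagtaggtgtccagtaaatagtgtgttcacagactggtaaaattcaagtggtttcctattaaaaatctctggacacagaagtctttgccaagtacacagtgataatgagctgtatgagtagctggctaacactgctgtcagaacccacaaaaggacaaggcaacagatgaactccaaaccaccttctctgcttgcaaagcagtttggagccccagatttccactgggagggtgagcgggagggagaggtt
Ucn: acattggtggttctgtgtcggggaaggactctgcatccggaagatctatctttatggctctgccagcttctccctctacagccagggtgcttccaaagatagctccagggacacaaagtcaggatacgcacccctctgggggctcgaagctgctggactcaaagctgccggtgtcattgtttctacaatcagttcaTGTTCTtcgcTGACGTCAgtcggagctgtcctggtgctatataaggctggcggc

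The 250 bases before each RefSeq start were searched on both strands for the CRE (TGACGTCA), its half-site (TGACG, which lies within the CRE), the TATA box (TATAAA) and the glucocorticoid receptor half-site (AGAACA). Of 32851 promoters 1.55% held a CRE, 17.8% the CRE half-site, 12.4% the TATA box and 16.1% the glucocorticoid half-site. Ucn held the CRE, beginning 44 bases before its start, and a glucocorticoid half-site on the opposite strand. Crhbp held 1 CRE half-site on the opposite strand, 64 bases before the RefSeq start and downstream of the stretch shown. Crhr2 held a TATA box, and no letters of the 4 motifs were found in the windows of Ucn3 and Crhr1. A match describes the sequence and is not evidence of binding.

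Among the peptide genes Ucn3 (ENSMUSG00000044988; chromosome 13, 3940688 to 3945349, minus strand) was far above the others. It had 2465, 1550 and 518 counts in Ide-/- replicates 1 to 3, against 3331, 3310, 2476, 1956 and 513 counts in Ide+/+ replicates 1 to 5. These were 68.6, 63.0 and 47.5 CPM in Ide-/- libraries, against 334, 84.3, 88.0, 115 and 55.0 CPM in Ide+/+ libraries. The groups overlapped, since Ide+/+ replicate 5 lay among the Ide-/- libraries, and Ide+/+ replicate 1 stood far above all others.

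The mean of Ucn3 was 59.7 ± 11.0 CPM in Ide-/- libraries (SD, n = 3) and 135 ± 113 CPM in Ide+/+ libraries (SD, n = 5), with a log2 fold change of −1.18 (SE 0.51). Without Ide+/+ replicate 1 the Ide+/+ mean was 85.6 ± 24.6 CPM (SD, n = 4) and the log2 fold change −0.52 (SE 0.24). On the TPM scale Ucn3 was at 73.9, 63.0 and 37.3 in Ide-/- libraries, against 105, 66.8, 67.3, 54.1 and 20.2 in Ide+/+ libraries, and the fold change on log2(TPM + 1) was 0.01 (SE 0.40). Ucn3 was thus lower in Ide-/- with TMM scaling and also with granule scaling (−0.91, SE 0.38), while its TPM value lay within its SE of 0. On log2(TPM + 1) the median of all tested genes was 0.50, so the Ucn3 value lay below that median.

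Relative to insulin transcripts Ucn3 was lower in each Ide-/- library. It was at 197, 226 and 162 TPM per 1000000 TPM of Ins1 and Ins2 in Ide-/- replicates 1 to 3, against 753, 396, 392, 477 and 461 in Ide+/+ replicates 1 to 5. The groups did not overlap on this ratio, with or without Ide+/+ replicate 1. The insulin genes themselves summed to 230079 to 375422 TPM in Ide-/- libraries and to 43877 to 171646 TPM in Ide+/+ libraries. Against Slc2a2, the glucose transporter gene of beta cells, the ratio of Ucn3 TPM was 3.32, 3.31 and 2.21 in Ide-/- libraries and 2.11 to 2.91 in Ide+/+ libraries, and the groups overlapped. Mean Slc2a2 was 19.4 TPM in Ide-/- libraries and 26.1 TPM in Ide+/+ libraries, so on means it too was lower relative to insulin. Per 1000000 granule counts Ucn3 was at 10281 to 12116 in Ide-/- libraries and at 13671 to 41004 in Ide+/+ libraries, which did not overlap. The share of all tested genes that do not overlap was computed for CPM only (33.0%) and not for these ratios.

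**Figure D2:**
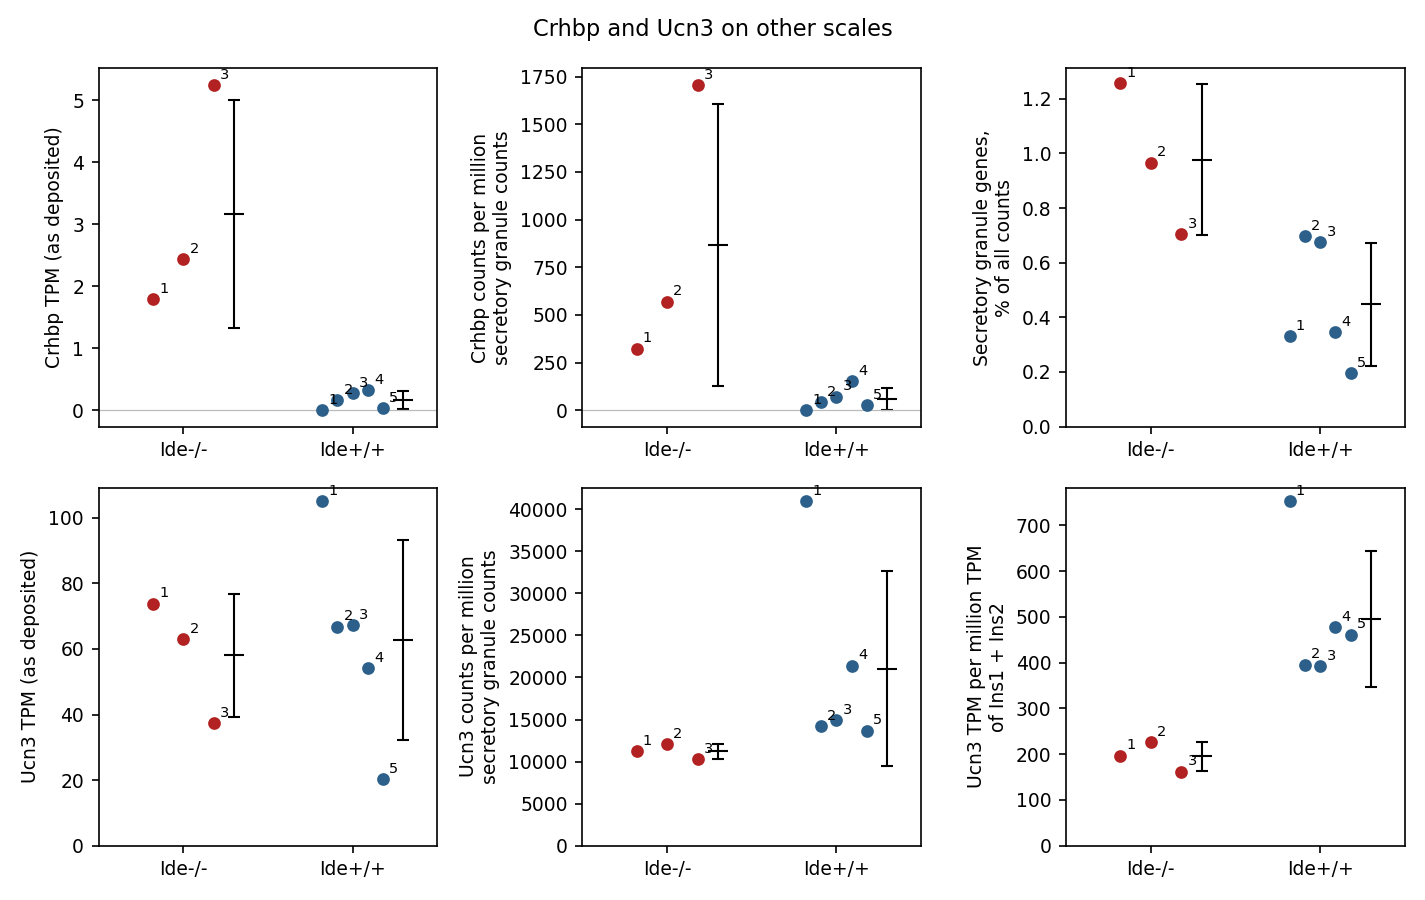
Crhbp (upper row) and Ucn3 (lower row) in deposited TPM and per 1000000 secretory granule counts, with the granule share of all counts (upper right) and Ucn3 per 1000000 TPM of Ins1 and Ins2 (lower right). Points are libraries with their replicate number and bars are the mean and SD; Crhbp was higher in every Ide-/- library on both scales, whereas Ucn3 overlapped in TPM and was at 162 to 226 in Ide-/- against 392 to 753 in Ide+/+ relative to insulin.

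The other 3 peptide genes were at or near 0. Crh, which encodes CRH itself, and Ucn, which encodes urocortin 1, had 0 counts in all 8 libraries. An upper limit of 3 counts allows up to 0.102 to 0.245 TPM of Crh in Ide-/- libraries and 0.0687 to 0.134 TPM in Ide+/+ libraries. For the shorter Ucn transcript the same limit is 0.329 to 0.784 TPM in Ide-/- libraries and 0.223 to 0.435 TPM in Ide+/+ libraries. Ucn2, the gene of urocortin 2, had 1, 1 and 0 counts in Ide-/- libraries, against 0, 1, 1, 1 and 1 counts in Ide+/+ libraries. The transcripts of both main ligands of CRHBP were thus not detectable at this depth in libraries of either genotype.

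Both receptor genes were low. Crhr1 (ENSMUSG00000018634; chromosome 11, 104132855 to 104175523, plus strand), the receptor that binds CRH and urocortin 1 but not urocortin 3, had 0, 2 and 1 counts in Ide-/- libraries, against 1, 25, 13, 3 and 1 counts in Ide+/+ replicates 1 to 5. These were 0, 0.0813 and 0.0917 CPM in Ide-/- libraries, against 0.10, 0.636, 0.462, 0.177 and 0.107 CPM in Ide+/+ libraries. Ide+/+ replicates 2 and 3 were the highest and had the lowest acinar shares of that genotype (20.9% and 21.1%), and the part of the acinar share in this was not tested. The other Ide+/+ libraries lay close to the Ide-/- libraries, and the CPM of the groups were apart by a margin smaller than 1 count. In TPM they overlapped, at 0 to 0.05 in Ide-/- libraries and 0.02 to 0.29 in Ide+/+ libraries.

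Crhr2 (ENSMUSG00000003476; chromosome 6, 55090049 to 55133016, minus strand), the receptor of urocortin 3, had 10, 11 and 4 counts in Ide-/- libraries, against 4, 14, 9, 1 and 2 counts in Ide+/+ libraries. Its mean was 0.364 ± 0.08 CPM in Ide-/- libraries (SD, n = 3) and 0.270 ± 0.14 CPM in Ide+/+ libraries (SD, n = 5). The groups overlapped, and the log2 fold change was 0.36 (SE 0.51), or 0.43 (SE 0.50) without Ide+/+ replicate 1. Summed delta cell markers were at 2791 to 6995 CPM in Ide-/- libraries and at 1236 to 2469 CPM in Ide+/+ libraries. Most of this sum was Sst, and the 6 other delta cell markers summed to 155 to 312 CPM in Ide-/- libraries and to 147 to 229 CPM in Ide+/+ libraries, which overlapped. Among them Hhex (−0.86) and Ffar4 (−0.64) had log2 fold changes below 0 and were not called. The part of delta cell transcripts in the Crhr2 values was not tested.

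Ordered by mean TPM, the Ide-/- libraries had Ucn3 at 58.0, Crhbp at 3.16, Crhr2 at 0.187, and Crhr1 and Ucn2 at 0.03. The Ide+/+ libraries had Ucn3 at 62.7, Crhbp at 0.16, Crhr1 at 0.116, Crhr2 at 0.10 and Ucn2 at 0.032. In Ide+/+ libraries Crhbp, Crhr1 and Crhr2 did not differ beyond their spread (SD 0.146, 0.123 and 0.0495 TPM, n = 5). In Ide-/- libraries Crhbp stood apart from both its neighbours in this order.

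**Figure D3:**
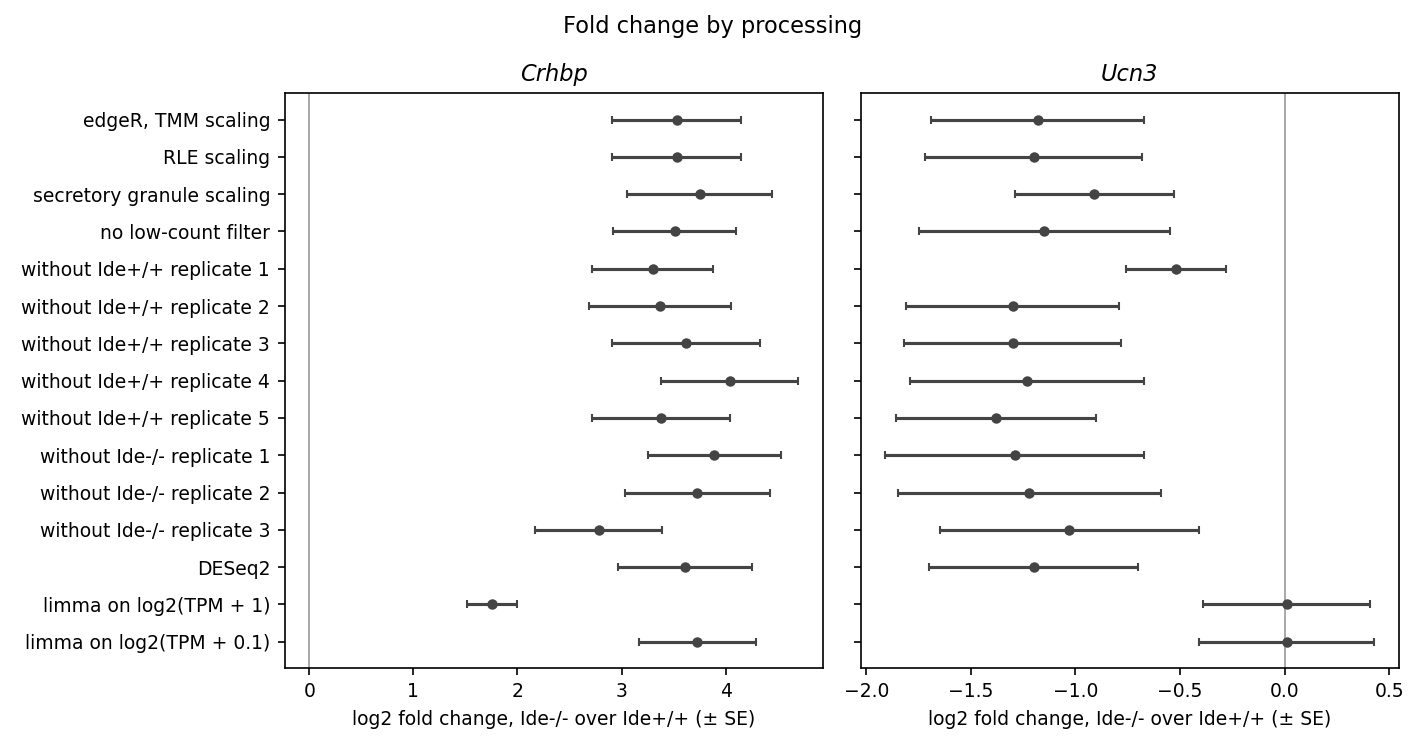
Log2 fold change (Ide-/- over Ide+/+) with its SE for Crhbp and Ucn3 under each scaling, tool, filter, and left-out library. Crhbp ranged from 1.76 to 4.04 and was above 0 throughout, whereas Ucn3 was −1.18 with TMM scaling, −0.52 without Ide+/+ replicate 1 and 0.01 on both TPM scales. On log2(TPM + 1) and log2(TPM + 0.1) the median of all tested genes was 0.50 and 0.83.

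The genes beside Crhbp on chromosome 13 were not part of the choice. Of its 6 nearest protein-coding genes, all tested, 1 was called in Ide-/- islets (adjusted p under 0.05, Benjamini-Hochberg over all tested genes), where 21.1% of all tested genes were called (10.4% higher and 10.6% lower). It was S100z (ENSMUSG00000021679; 95477268 to 95478721, minus strand), a calcium-binding S100 protein gene 32344 bases away, and it rose. S100z was at 3.54, 4.19 and 6.78 CPM in Ide-/- libraries, against 1.0, 0.967, 1.24, 1.18 and 0.429 CPM in Ide+/+ libraries. S100z had a log2 fold change (SE in brackets) of 2.25 (0.33) by the edgeR quasi-likelihood test, at an adjusted p of 0.0012, and it was called in each alternative run. The other 5, Aggf1 (0.13), Zbed3 (−0.20), Pde8b (0.46), F2rl1 (−0.94) and F2r (−0.08, all log2), were not called, with adjusted p from 0.075 to 0.86.

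Of the 6 neighbours of Ucn3, 3 were tested and 1 fell, where 10.6% of all tested genes were called lower. Net1, a RhoA exchange factor gene, was at 3.71 ± 0.08 CPM in Ide-/- libraries (SD, n = 3) and 6.52 ± 1.97 CPM in Ide+/+ libraries (SD, n = 5), and the edgeR log2 fold change was −0.80 with an SE of 0.25 (adjusted p = 0.041). The call was lost without Ide+/+ replicate 4 or any 1 of the Ide-/- libraries, with granule scaling (adjusted p = 0.15) and without the low-count filter (adjusted p = 0.058). The Net1 value was 0.59 on log2(TPM + 1) and −0.60 without Ide+/+ replicate 1, its highest library. Akr1c14 and Akr1c13, aldo-keto reductase genes, had log2 fold changes of −0.11 and −0.54 and were not called, and without Ide+/+ replicate 1 they were at 0.20 and −0.08. Tubal3, Calm5 and Akr1c18 did not pass the filter.

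Likeness of pattern was measured as the root mean square difference of log2 CPM over the 8 libraries, after the mean of each gene was subtracted. The 5 genes most like Crhbp were Gm13648 (0.55), Asb9 (0.74), Pyroxd2 (0.74), Fyb2 (0.75) and Gm43048 (0.76). All 5 were higher in Ide-/- libraries, as this choice by likeness makes them. Pyroxd2 was the most abundant, at 16.1, 15.5 and 21.5 CPM in Ide-/- libraries and at 0.802 to 3.23 CPM in Ide+/+ libraries. Pyroxd2 lies on chromosome 19 (42725858 to 42752775), as does Ide (37268743 to 37337852), and the part of this position in its values was not tested. The 5 genes most like Ucn3 were Bace2 (0.15), Maob (0.18), Hadh (0.20), Sqle (0.20) and Prnp (0.20), and all 5 were highest in Ide+/+ replicate 1. Bace2, which encodes a protease of beta cells, was at 130 CPM in that library and at 22.7 to 35.0 CPM in the Ide-/- libraries.

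Genes downstream of CRH receptors and of the wider system were taken from 8 lists. Of their 96 tested genes 11 rose and 6 fell in Ide-/- islets, so that 17.7% were called, against 21.1% of all tested genes. The acinar share was at most 1.285% in Ide-/- libraries and at least 20.9% in Ide+/+ libraries. The part of acinar, duct, macrophage, lymphocyte, neuron and Schwann cell transcripts in each list, including the genes that fell, was not tested.

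Cyclic AMP signalling genes were mostly not called. Of 34 tested members 4 rose, 1 fell and 29 did not pass, with a median log2 fold change of 0.01. Of all tested genes 21.1% were called. Pde10a, a phosphodiesterase that breaks down cyclic nucleotides, rose most, to 40.2, 35.4 and 28.7 CPM in Ide-/- libraries, against 2.51, 15.3, 13.6, 7.30 and 3.22 CPM in Ide+/+ libraries (log2 fold change 2.00, SE 0.46, adjusted p = 0.012, edgeR). The groups did not overlap, and the call held without any 1 library but not without the low-count filter (adjusted p = 0.10). Adcy9, an adenylyl cyclase gene (0.82), Rapgef4, which encodes the cyclic AMP sensor EPAC2 (0.61), and Grk3, a receptor kinase gene (0.71), also rose. Arrb1, the gene of beta-arrestin 1, fell (−1.23). The call of Adcy9 was lost without Ide-/- replicate 1 or 3, that of Grk3 without Ide+/+ replicate 4 or 5 or any 1 Ide-/- library, that of Arrb1 when Ide-/- replicate 1 or 2, or Ide+/+ replicate 4 or 5, was left out, and that of Rapgef4 without any 1 library but Ide+/+ replicate 1. With granule scaling the calls of Adcy9, Rapgef4, Grk3 and Arrb1 were lost (adjusted p = 0.056, 0.066, 0.13 and 0.16), and that of Rapgef4 also without the low-count filter (adjusted p = 0.078). Gnas, which encodes the G protein that couples these receptors to cyclases, was at a mean of 313 CPM in Ide-/- libraries and 288 CPM in Ide+/+ libraries and was not called (adjusted p = 0.76).

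Other class B receptors gave a scale for Crhr1 and Crhr2. Per length, the incretin receptor genes Glp1r and Gipr had mean levels of 18.7 and 18.1 TPM in Ide-/- libraries and 13.8 and 10.2 TPM in Ide+/+ libraries, against 0.187 and 0.10 TPM of Crhr2. Of 8 tested receptors, with a median log2 fold change of 0.24, 1 was called and fell, where 21.1% of all tested genes were called. It was Vipr2, a receptor of the neuropeptides VIP and PACAP, at 0.652 ± 0.23 CPM in Ide-/- libraries (SD, n = 3) and 3.15 ± 1.79 CPM in Ide+/+ libraries (SD, n = 5), and the edgeR log2 fold change was −2.17 with an SE of 0.49 (adjusted p = 0.011). The call was lost without Ide-/- replicate 2 or 3 and on log2(TPM + 0.1) (adjusted p = 0.074). Without Ide+/+ replicate 1, its highest library, the log2 fold change of Vipr2 was −1.82.

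On the somatostatin side, which urocortin 3 is known to drive, 3 of 6 listed genes were tested. All 3 were called, 2 higher and 1 lower, where 21.1% of all tested genes were called. This list was chosen with earlier results of these data known. Sst, the hormone gene of delta cells, was at 2636, 6683 and 4630 CPM in Ide-/- libraries, against 2059, 2217, 2258, 1089 and 1462 CPM in Ide+/+ libraries. It rose (log2 fold change 1.36, SE 0.44, adjusted p = 0.047, edgeR), but the call was lost without any 1 library but Ide+/+ replicate 1 and with RLE or granule scaling. Sstr3, a somatostatin receptor gene of islet cells, rose (1.12, SE 0.25, adjusted p = 0.011). The call of Sstr3 did not hold once Ide-/- replicate 3 was left out. Sstr2, a further somatostatin receptor gene, fell to 1.25, 0.813 and 0.733 CPM in Ide-/- libraries, against 3.41, 3.18, 3.98, 3.83 and 4.94 CPM in Ide+/+ libraries (−1.99, SE 0.30, adjusted p = 0.0013). Its groups were well apart in CPM, and it was not called on log2(TPM + 1), where its value was −0.52. Of the 7 delta cell markers 2 rose, with a median of 0.33.

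Of 12 tested genes of the stress hormone axis 1 rose, 2 fell and 9 were not called, with a median of 0.10, a share called close to the 21.1% of all tested genes. Without Ide+/+ replicate 1 the number that fell was 4, and it was 1 without Ide+/+ replicate 4 or any 1 Ide-/- library. Pomc, the precursor gene of ACTH, which CRH drives in the pituitary, rose to 5.49, 4.35 and 7.06 CPM in Ide-/- libraries, against 3.21, 2.47, 2.67, 2.47 and 2.68 CPM in Ide+/+ libraries (log2 fold change 1.06, SE 0.23, adjusted p = 0.0084, edgeR). The groups did not overlap, and the call held without any 1 library. Nr3c2, the mineralocorticoid receptor gene, fell (−1.22, SE 0.22, adjusted p = 0.0038). Sgk1, a kinase gene induced by corticosteroids, fell too (−2.03, SE 0.55, adjusted p = 0.023), although Ide+/+ replicate 1 was at 17.5 CPM, below the Ide-/- libraries at 18.6 to 27.3 CPM, and the call was lost without Ide+/+ replicate 4 or any 1 Ide-/- library, with granule scaling (adjusted p = 0.061) and without the low-count filter (adjusted p = 0.13). Nr3c1, the glucocorticoid receptor gene, was at a mean of 34.0 CPM in Ide-/- libraries and 32.9 CPM in Ide+/+ libraries and was not called (adjusted p = 0.88).

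Of 7 genes that mature and amidate peptides such as the urocortins, 1 rose, where 10.4% of all tested genes were called higher. Pam, the amidating enzyme gene, was at 242 ± 15.4 CPM in Ide-/- libraries (SD, n = 3) and 140 ± 18.3 CPM in Ide+/+ libraries (SD, n = 5), and the edgeR log2 fold change was 0.79 with an SE of 0.22 (adjusted p = 0.026). The call was lost without Ide+/+ replicate 4 or any 1 Ide-/- library or with granule scaling (adjusted p = 0.10), and the median of the list was −0.13. Of 19 secretory granule genes, which include 6 of the 7, 3 rose, beside the same 10.4% of all tested genes. Their median was −0.22, and the 3 were Pam, the granule protein gene Vgf (2.02) and the granule phosphatase gene Ptprn (1.15). The call of Vgf was lost without Ide-/- replicate 1, and that of Ptprn when Ide+/+ replicate 4 or 5 or any 1 Ide-/- library was left out or with granule scaling (adjusted p = 0.059).

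Ucn3 is widely used as a marker of beta cell maturity. Of 12 other maturity genes 0 were called by edgeR (0 also at an unadjusted p under 0.05), and the median log2 fold change was −0.08. DESeq2 also called 0, and limma called 5 of them higher on log2(TPM + 1), where the median of all tested genes was 0.50. Ins2 was at 69305 ± 8266 CPM in Ide-/- libraries (SD, n = 3) and 55628 ± 26585 CPM in Ide+/+ libraries (SD, n = 5), and Ins1 at 16601 ± 1994 CPM in Ide-/- libraries and 12299 ± 5946 CPM in Ide+/+ libraries. The log2 fold change was 0.32 for Ins2 and 0.43 for Ins1, or 0.63 and 0.72 without Ide+/+ replicate 1. Of 9 genes of immature or dedifferentiated beta cells 1 rose and 1 fell, with a median of −0.78, where 21.1% of all tested genes were called. Without Ide+/+ replicate 1 the number that fell was 4. Aldh1a3, an aldehyde dehydrogenase gene of dedifferentiated beta cells, rose to 4.18, 2.28 and 1.38 CPM in Ide-/- libraries, against 0.301, 0.662, 0.533, 0.471 and 0.107 CPM in Ide+/+ libraries (log2 fold change 2.51, SE 0.45, adjusted p = 0.0033, edgeR). Ldha, a lactate dehydrogenase gene that mature beta cells keep low, fell (−1.48, SE 0.23, adjusted p = 0.0017). Ldha is also expressed outside beta cells. Like those of Sstr2, Nr3c2, Sgk1 and Arrb1, its lower call was not made on log2(TPM + 1).

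**Figure D4:**
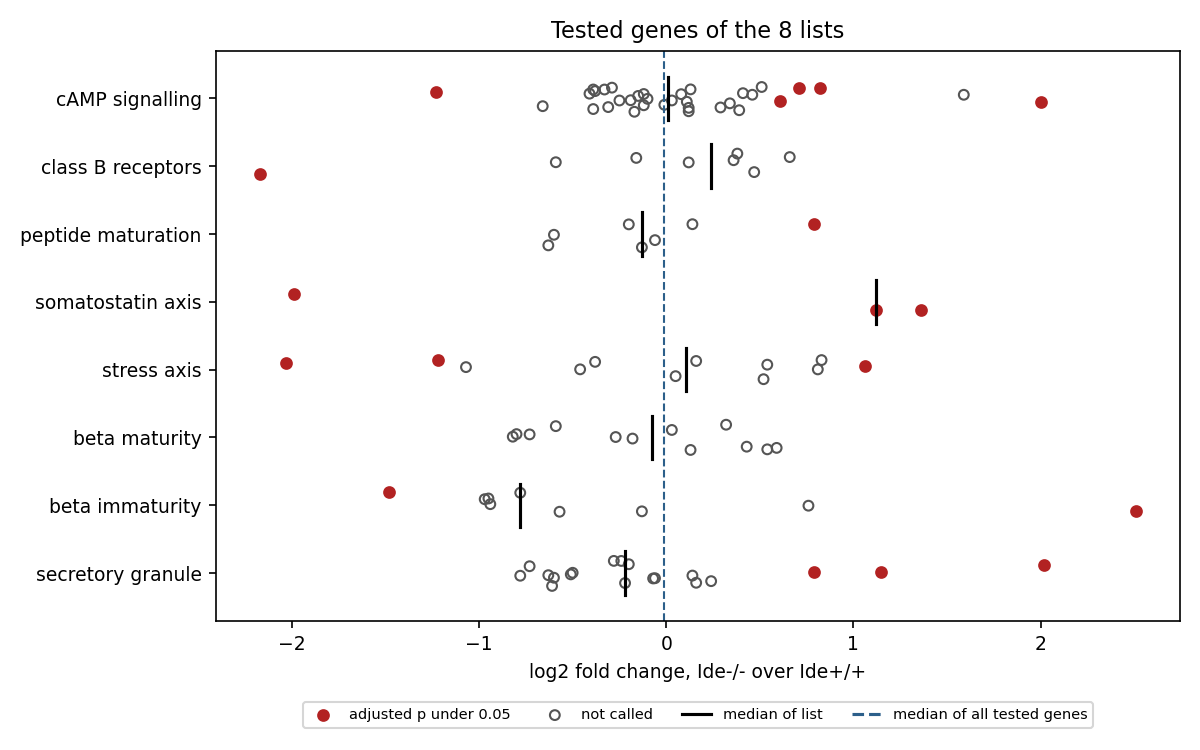
Log2 fold change (Ide-/- over Ide+/+) of each tested gene in the 8 lists, with filled points at an adjusted p under 0.05, a black bar at the median of the list and a dashed line at the median of all tested genes (−0.01). The somatostatin list held 3 called genes of 3 tested (2 higher, 1 lower) and the beta maturity list 0 of 12, where 21.1% of all tested genes were called.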

How the data were processed

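Islet RNA-seq of 3 Ide-/- and 5 Ide+/+ libraries was used. The authors deposited, per library, RSEM expected counts, TPM, FPKM and transcript lengths, made with STAR 2.7.1a and RSEM 1.3.1 on GRCm38, per the submitters' processing notes; strand setting and annotation release are not given in the sources used here, so antisense reads cannot be told apart. The deposited FPKM values were not used. Expected counts were rounded and fitted with edgeR 4.0.16 in R 4.3.3 (TMM scaling, filterByExpr with a minimum count of 10 and total of 15, robust quasi-likelihood F test on genotype, Benjamini-Hochberg adjustment over 16266 genes, called at adjusted p under 0.05). CPM are TMM-scaled; log2 CPM for likeness used a prior count of 2. The authors' TPM were tested with limma 3.58.1 on log2(TPM + 1) and log2(TPM + 0.1), where the pseudocount pulls the fold changes of low genes towards 0 and the median of all tested genes was at 0.50 and 0.83; DESeq2 1.42.0 was a further alternative. SEs were obtained from the F statistic, as the size of the log2 fold change over its square root. The script was tested on simulated data.

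Other alternatives were RLE scaling, scaling to 19 secretory granule genes, no low-count filter, a replicate block and leaving out each library. Identifiers were matched to GENCODE M21 (55227 of 55487; 260 unmatched). Total counts per library were 7143415 to 33371642. Upper limits for 0 counts use 3 counts, and 95% intervals are exact binomial. The members and lists were chosen with earlier results of these data known. Named genes were the 7 members, Ide, up to 4 called genes of each list by smallest p (otherwise the 2 with the highest mean CPM), the 3 nearest protein-coding genes on either side of Crhbp and Ucn3, and the 5 genes most like each in pattern. Grk3, Gnas, Glp1r, Gipr and Nr3c1 fall outside this rule and were chosen after their values were seen, as was Slc2a2 for the ratio.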

Additional observations from a re-analysis of the deposited data

Results flagged for a closer look

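Single libraries stood apart within the 5 Ide+/+ libraries for 14 of 55 quantities screened. For each, the gap to the nearest library divided by the range of the group was above 0.71, Dixon's 95% critical value for 5 samples, which chance passes in about 1 in 20 groups. Ide+/+ replicate 1 was the library in 13 of the 14, but these are not separate observations: 3 are Ucn3 on different scales and 5 are genes picked for a pattern like that of Ucn3. It is the library that carried Xist and no Y-linked transcripts, with the highest acinar share (35.4%) and the lowest TMM factor (0.405), and the part of these in the values was not tested.

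Ucn3 of Ide+/+ replicate 1 was highest in CPM (334, gap ratio 0.784), per 1000000 granule counts (41004, 0.718) and per 1000000 insulin TPM (753, 0.765). The 5 genes closest to it in pattern were high in the same library, as their choice by likeness makes them: Maob (133 CPM, 0.889), Sqle (87.8 CPM, 0.868), Hadh (269 CPM, 0.838), Prnp (442 CPM, 0.820) and Bace2 (130 CPM, 0.734). High there as well were the Ucn3 neighbours Akr1c13 (31.5 CPM, 0.869), Net1 (10.02 CPM, 0.862) and Akr1c14 (35.1 CPM, 0.821), and Pomc (3.21 CPM, 0.711). Zbed3, a neighbour of Crhbp, was lowest in the same library (3.61 CPM, 0.720). Crhr2 of Ide+/+ replicate 4 was low per 1000000 granule counts (10.9, gap ratio 0.777), a value that rests on 1 count.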

How the results depend on the processing

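Crhbp was higher in Ide-/- islets in each alternative run, with a log2 fold change of 2.78 to 4.04 when 1 library was left out (lowest without Ide-/- replicate 3) and 1.76 on log2(TPM + 1). Ucn3 ranged from −1.38 to −0.52 when 1 library was left out and was 0.01 on log2(TPM + 1) and 0.01 on log2(TPM + 0.1). Of all tested genes 1699 were higher and 1727 lower, against 851 and 843 with granule scaling, 5987 and 412 on log2(TPM + 1), and 4772 and 385 on log2(TPM + 0.1). Leaving out 1 library gave 694 to 2141 higher and 809 to 2139 lower. The share of calls that were higher was 49.6%, but 93.6% and 92.5% on the TPM scales, where the median of all tested genes was 0.50 and 0.83. Of the genes of the 8 lists together, 11 were higher and 6 lower, against 5 higher with granule scaling, 34 higher and 1 lower on log2(TPM + 1), 29 higher and 0 lower on log2(TPM + 0.1), and 4 to 12 higher and 3 to 11 lower when 1 library was left out. Across 38 named genes 570 comparisons with an alternative were made, of which 456 kept direction and call, 81 lost the call, 12 gained it and 21 changed sign. The sign changed on log2(TPM + 1) and log2(TPM + 0.1) for Akr1c13 (0.44, 0.48), Net1 (0.59, 0.81), Hadh (0.18, 0.19), Zbed3 (0.46, 0.66), Prnp (0.26, 0.26), Akr1c14 (0.73, 0.83) and F2r (0.46, 0.84). It changed with granule scaling for Akr1c14 (0.04) and F2r (0.03), without Ide+/+ replicate 1 for Akr1c14 (0.20), without Ide+/+ replicate 2 (0.02) or Ide-/- replicate 1 (0.05) for F2r, and without Ide-/- replicate 3 for Aggf1 (−0.04). Leaving out 1 library gave −0.21 to 0.20 for Akr1c14, −0.26 to 0.05 for F2r and −0.04 to 0.23 for Aggf1. The cause was not tested. Levels of Crhr1, Crhr2 and Ucn2 are limited by depth, and Ide-/- libraries were the shallower ones.

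Deviations of same-numbered libraries from their group means correlated at 0.05, 0.01 and −0.09 for replicates 1, 2 and 3. These correlations show no pairing by replicate number, but they cannot tell whether same-numbered samples were handled together. With a replicate block 465 genes were higher and 706 lower (39.7% higher), 2 list genes were higher, F2r was at 0.05 and Crhbp at 4.08.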
